A study of Homo sapiens with 7 samples.

Results

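The genes described here encode subunits of the 5 enzyme complexes of the respiratory chain, including the ATP synthase, and were chosen by gene symbol alone. Of the 32738 rows of the gene count table, 87 matched, 74 from the nuclear genome and 13 from mitochondrial DNA. RNA came from HUDEP-2, an immortalised human erythroid progenitor line, in which CRISPR interference (a guide RNA bringing a repressor to chosen DNA) had been set up by lentiviral infection. Every library came from cells grown with doxycycline, dexamethasone, stem cell factor and erythropoietin, and then held for 72 h in a differentiation medium with erythropoietin at 3 IU/ml. The 3 groups were a non-targeting guide (3 libraries), guide 1 (2 libraries) and guide 2 (2 libraries), and both targeting guides were aimed upstream of the erythroid isoform of TMCC2. The sources used here do not say how the repressor and the guide were expressed, or whether a group was a pool or a clone. The labels do not tie replicates to separate infections or cultures, and p-values therefore reflect the spread between these libraries alone, which may be technical.

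The respiratory chain sits in the inner mitochondrial membrane. Complex I (NADH dehydrogenase) and complex II (succinate dehydrogenase) feed electrons to ubiquinone, complex III passes them to cytochrome c, complex IV hands them to oxygen, and the ATP synthase, complex V, uses the resulting proton gradient. Complexes I, III, IV and V are built from subunits encoded in both genomes, whereas complex II is wholly nuclear. The mitochondrial genes are transcribed as long polycistronic RNAs by a separate polymerase, and many nuclear genes of the chain carry binding sites for NRF1, ETS factors such as GABPA, or YY1. Maturing red cells rely on mitochondria for heme and iron-sulfur cluster synthesis before they clear them.

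The guides, as the labels give them, are shown first because they define the 3 groups:
non-targeting: atcgcgaggacccgttccgcc
guide 1: gtcgtgctgcaggtgaagtg
guide 2: ccatccttcagagtaaacag
Their genomic positions were not analysed here. Against 3260 sites followed by an NGG motif in the promoters of the nuclear subunit genes, the closest match had 8 mismatches for the non-targeting guide (ATP5I), 6 for guide 1 (SDHA) and 8 for guide 2 (NDUFB6).

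RefSeq promoters on GRCh38.p14, each from 250 bases before to 50 bases after an annotated start, were found for 61 of the 74 nuclear subunit genes. The entry listed first for a gene was used, and it may not mark the main start. On either strand, the NRF1 word GCGCATGCG occurred in 10 of the 61 (16.4%), against 1.92% of all 35116 promoters of that length and 3.53% of the promoters of genes expressed well enough to be tested here. Its full palindrome, the word on both strands 1 base apart, occurred in NDUFB4, NDUFA8, ATP5C1 and SDHD (6.56%, against 1.24 and 2.17%). The ETS word CCGGAAG occurred in 19 (31.1%, against 10.3% of all promoters and 19.2% of those of tested genes). The YY1 word AAGATGGCG occurred in 8 (13.1%, against 1.75 and 4.14%). The ETS and YY1 words can overlap in the letters AAG. At least 1 of the 3 words was present in 30 of the 61 (49.2%), compared with 13.1% of all promoters and 24.8% of those of tested genes. Both backgrounds counted every listed promoter, 11063 for tested genes, whereas each subunit gene had a single entry. Tested genes were matched by the same symbol only, so renamed genes are missing from that background. The promoters of SDHD and NDUFA5 are printed because these genes departed furthest of the nuclear subunits from the other libraries in 1 control library, and because only the first of the pair holds any of the words. The SDHD window is chr11:112086623-112086922 on the plus strand and the NDUFA5 window is chr7:123601602-123601901 on the minus strand. Any other starts of these genes were not searched. Capitals mark the NRF1 palindrome and the ETS word, the latter read on the opposite strand:
SDHD: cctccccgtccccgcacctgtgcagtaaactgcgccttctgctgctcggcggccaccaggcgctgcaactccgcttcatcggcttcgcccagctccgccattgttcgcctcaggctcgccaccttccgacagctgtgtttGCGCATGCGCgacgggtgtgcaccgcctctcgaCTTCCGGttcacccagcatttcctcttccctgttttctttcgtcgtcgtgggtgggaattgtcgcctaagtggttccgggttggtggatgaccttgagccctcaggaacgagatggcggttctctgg
NDUFA5: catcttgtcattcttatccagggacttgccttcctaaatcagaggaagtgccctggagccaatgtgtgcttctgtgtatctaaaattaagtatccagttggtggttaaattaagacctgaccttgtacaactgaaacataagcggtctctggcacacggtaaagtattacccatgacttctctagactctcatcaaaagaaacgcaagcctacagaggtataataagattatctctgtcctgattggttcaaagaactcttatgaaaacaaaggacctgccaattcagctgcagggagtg
A match describes these letters only and says nothing of occupancy, and no match says only that the words are not in this window.

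Each library held between 9780800 and 11350113 counts, and 10212 genes passed the filter on low counts. TMCC2 lay at 832, 839 and 937 CPM (the count scaled to library size) in the non-targeting libraries and between 219 and 260 in the 4 guide libraries (log2 fold change -1.89, SE 0.09, edgeR adjusted p = 4.43e-08). Erythroid markers summed to between 231000 and 266000 CPM, and globin genes took 23 to 26.9% of counts. White blood cell markers summed to at most 1.5 CPM, with CD3E, MS4A1, MPO, S100A8 and S100A9 among those at 0. Megakaryocyte markers summed to 177 to 208 CPM without targeting and 183 to 214 CPM with a guide. Of these 7 markers, 2 passed the filter on low counts, and PF4 and PPBP were at 0. One control library, non-targeting replicate 1, was unlike the rest: 29.7% of all tested genes were higher in it than in every other library and 26.9% were lower. Values without it are given beside many of the results.

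Of the 87 subunit genes, 84 could be tested, 71 nuclear and all 13 mitochondrially encoded. NDUFB8 and UQCR11 were at 0 counts in all 7 libraries and NDUFA7 had 1 count in 1 library. The table also holds rows named NDUFB8.1 (59 to 129 counts) and UQCR11.1 (528 to 785 counts), which lie outside the symbol rule. Neither moved past the threshold between both guides and non-targeting, with log2 fold changes of 0.34 and 0.15. The zeros were not read as absent transcripts.

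No subunit gene was called in any of the 4 comparisons (edgeR's quasi-likelihood test, with p-values adjusted by Benjamini-Hochberg across the 10212 genes and a threshold of 0.05). In both guides together against non-targeting, 0 of 71 nuclear and 0 of 13 mitochondrially encoded genes passed, against 0.0196% of all tested genes. The same count of 0 held for guide 1 (0.0294% of all genes), guide 2 (0.00979%) and guide 2 against guide 1 (0%). At an unadjusted p under 0.05, 2 nuclear genes passed with both guides, SDHD and ATP5D (2.82% of 71, against 4.19% of all genes), 3 with guide 1 (4.23%, against 4.78%), 0 with guide 2 (against 2.75%) and 2 between the guides (2.82%, against 2.86%). No mitochondrially encoded gene reached that level in any comparison. DESeq2 also called 0 subunit genes in each comparison.

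These counts changed without non-targeting replicate 1, when 10107 genes were tested and more of all genes passed in every comparison. At an unadjusted p under 0.05, 18 of 71 nuclear genes then passed with guide 2 (25.4%, against 14.9% of all genes), 15 of them lower. Of all genes passing there, 690 were higher and 818 lower. Between the guides it was 19 nuclear genes (26.8%, against 13%), of which 14 were lower with guide 2. Of all genes, 670 were higher and 646 lower. With both guides 7 nuclear genes passed (9.86%, against 10.5%) and with guide 1 it was 2 (2.82%, against 7.37%). Nuclear subunit levels also moved with transcript base composition, described below, and its part in these counts at unadjusted p was not tested. One mitochondrially encoded gene, MT-ND4, passed with guide 2, at a log2 fold change of 0.15 (unadjusted p = 0.0226, edgeR adjusted p = 0.244). Of these genes, edgeR's adjusted threshold was met by 1 nuclear gene with both guides (against 0.524% of all genes), 1 with guide 1 (0.584%), 3 with guide 2 (1.27%) and 0 between the guides (0.317%). They were ATP5D and, with guide 2, also COX6B1 and NDUFA3, described with the ATP synthase. When each library was also adjusted for base composition, ATP5D was called with both guides, with guide 1 and between the guides. No subunit gene was then called with guide 2.

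The median log2 fold change with both guides was 0.02 over the nuclear genes, -0.01 over the mitochondrially encoded genes and -0.02 over all tested genes. With guide 1 alone, 51 of 71 nuclear genes lay above 0 (median 0.06) and 8 of 13 mitochondrially encoded genes below it (median -0.06). On total counts without TMM scaling, 41 of 71 nuclear genes lay above 0 with guide 1, and without non-targeting replicate 1 it was 32 of 71. With guide 2 the medians were -0.02 and 0.00, and on total counts they were 0.03 and 0.04. All of these medians were smaller in size than the spread of the sets between replicates. The median level of the nuclear set differed between replicates of a group with an SD of 0.085 on the log2 scale. For the mitochondrial set the SD was 0.0857. That SD is of single libraries. It does not measure the spread of a fold change between groups or of the counts of genes above 0. The precision was enough to bound most members: the 95% interval lay within 0.5 log2 units either side of 0 for 66 of 71 nuclear and 12 of 13 mitochondrially encoded genes. Over all tested genes this held for 5370 of 10212. All 4 guide libraries lay above all 3 non-targeting libraries for 2 nuclear genes, NDUFA1 and SDHB (3.03% of all tested genes did so), and below them for 0 (2.37%). In the bulk samples, fewer cells of a type and less RNA per cell cannot be told apart.

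**Figure D1:**
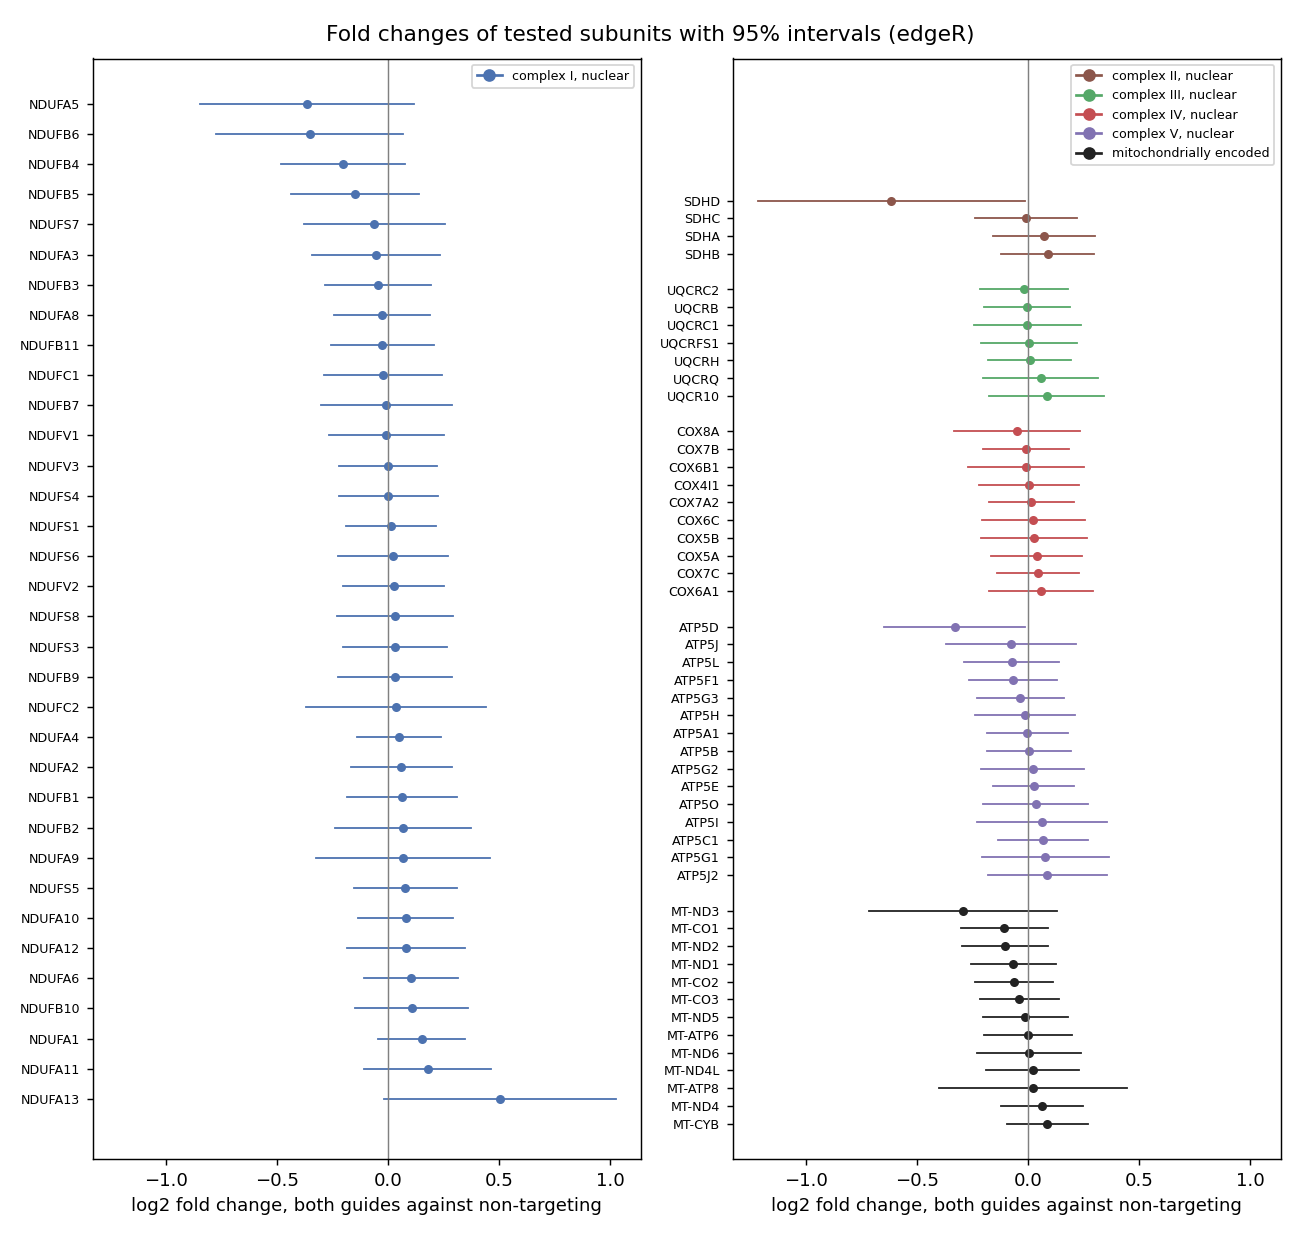
Log2 fold changes of tested subunit genes, both guides against non-targeting, as points with 95% intervals from edgeR, grouped by complex (left, nuclear complex I; right, the other nuclear complexes and the mitochondrially encoded genes). Intervals of SDHD and ATP5D end just below 0 and all others shown cross it, and no gene passed the adjusted threshold.

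The 13 mitochondrially encoded genes together took 1.08, 0.874 and 0.908% of counts in the 3 controls, 0.896 and 0.891% in the guide 1 libraries, and 1.01 and 0.947% in the guide 2 libraries. The 74 nuclear genes took a similar and steadier share, from 0.946% in non-targeting replicate 3 to 0.989% in guide 2 replicate 1. The ratio of mitochondrial to nuclear subunit counts was 0.998 ± 0.121 (SD, n = 3) without targeting and 0.967 ± 0.0444 (SD, n = 4) with a guide. The highest ratio, 1.13, was that of non-targeting replicate 1, and the other 6 libraries lay between 0.901 and 1.02, with the groups overlapping.

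**Figure D2:**
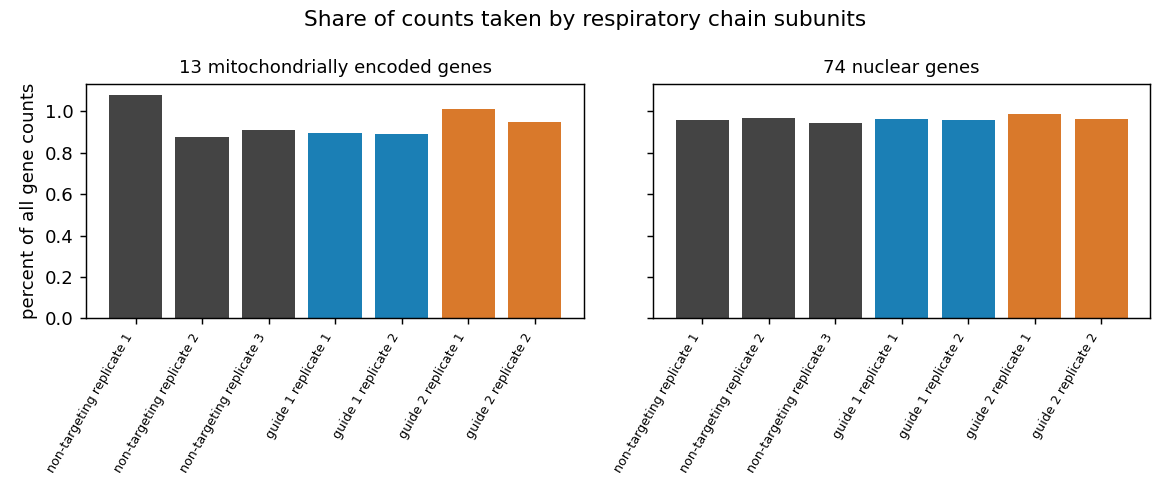
Share of all gene counts, in percent, taken by the 13 mitochondrially encoded genes (left) and the 74 nuclear genes (right), 1 bar per library, coloured by group. The mitochondrial share is highest in non-targeting replicate 1 at 1.08% and the nuclear share stays between 0.946 and 0.989%.

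Per kilobase of transcript, MT-CO2 led the mitochondrial genes in the non-targeting libraries, at 2150 ± 89.2 CPM per kb (SD, n = 3). It encodes the subunit of complex IV that takes up electrons from cytochrome c. MT-ND4L followed at 1680 ± 64.6, then MT-CO1, the catalytic subunit, at 1290 ± 141. MT-ND4 (1110 ± 61.2) and MT-ND1 (1110 ± 89.9), both membrane-arm subunits of complex I, could not be separated from each other. MT-CO3 came next at 719 ± 27.1 CPM per kb. MT-CYB, the cytochrome b of complex III and its only mitochondrially encoded subunit, MT-ND5 and MT-ND2 formed a group at 524 ± 21.5, 514 ± 42.7 and 479 ± 39.1 that did not differ beyond their spread. MT-ATP6 (356 ± 28.9) and MT-ND3 (291 ± 128) overlapped as well. MT-ND6, the only member transcribed from the light strand, lay far lower at 112 ± 7.59, and MT-ATP8 was lowest at 67.1 ± 20.5. By raw share, MT-CO1 took 19.2 to 21.7% of mitochondrial subunit counts across the 7 libraries, MT-ND4 15.9 to 17.6% and MT-CO2 14.4 to 16%.

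**Figure D3:**
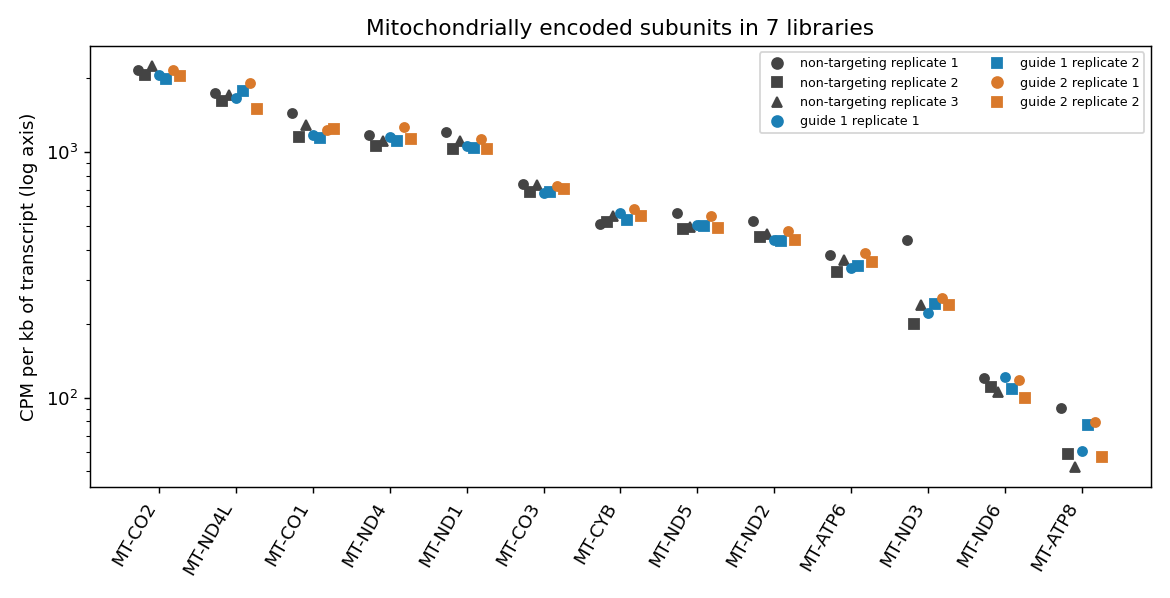
CPM per kb of transcript (log axis) of the 13 mitochondrially encoded genes in each of the 7 libraries, ordered by their mean in the non-targeting libraries; colour gives the group and marker shape the replicate. Mean control levels run from MT-CO2 at 2150 to MT-ATP8 at 67.1 CPM per kb, and the libraries separate visibly for MT-ND3 and MT-ATP8.

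Reading frames of 2 neighbouring pairs overlap on the mitochondrial genome, which bears on how reads of MT-ATP8 and MT-ND4L could be assigned. The shared stretches, read from GENCODE transcripts, are printed with the start codon of the second gene and the stop codon of the first in capitals:
MT-ATP8 and MT-ATP6: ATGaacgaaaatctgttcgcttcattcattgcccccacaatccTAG
MT-ND4L and MT-ND4: ATGcTAA
The first stretch is 46 bases of the 207 of MT-ATP8, the second only 7 of the 297 of MT-ND4L. Values of the 2 pairs are given by annotated gene and cannot be read as levels of separate messages. Nuclear copies of mitochondrial DNA add a further limit on single genes. Of the 50-base words of MT-CO1, 49.5% also occurred in transcripts of other genes, almost all in MTCO1P12, and the share was 46.7% for MT-ATP6 and 43.6% for MT-ND2. MT-CO3 (30.6%), MT-CO2 (29%), MT-ND1 (22.1%) and MT-ND6 (17.9%) also shared many words. It was 0% for MT-ND3 and MT-ND4L, 1.2% for MT-CYB and 3.5% for MT-ND4. The sources used here do not say how reads that fit several places were counted, so levels of genes with large shares are uncertain one by one.

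With both guides, the log2 fold changes of the mitochondrial genes ran from -0.29 (MT-ND3) to 0.09 (MT-CYB). Among the complex I genes, MT-ND1 was at -0.07 (SE 0.09), MT-ND2 at -0.11 (SE 0.09) and MT-ND4 at 0.06 (SE 0.09). MT-ND4L was at 0.02 (SE 0.10), MT-ND5 at -0.01 (SE 0.09) and MT-ND6 at 0.00 (SE 0.11). MT-CO1, MT-CO2 and MT-CO3 of complex IV were at -0.11, -0.06 and -0.04, and MT-ATP6 and MT-ATP8 of the ATP synthase at 0.00 and 0.02. None came near the threshold, and the smallest unadjusted p was that of MT-ND3 at 0.162. MT-ND3 had 151, 68.6 and 82.6 CPM in the controls, 76.7 and 82.9 in the guide 1 libraries and 87.6 and 82.5 in the guide 2 libraries. A single value, in non-targeting replicate 1, was high and the other 6 overlapped, and without that library its log2 fold change was 0.13. With an adjustment of each library for transcript GC content (the percent of G and C bases), the 13 values ran from -0.16 (MT-ND3) to 0.14 (MT-ATP8).

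Nuclear complex I genes summed to between 2560 and 2790 CPM. NDUFA10, an accessory subunit of the membrane arm, took the most reads of them, at 199, 253 and 229 CPM without targeting, 232 and 239 with guide 1, and 246 and 241 with guide 2 (log2 fold change 0.08, SE 0.10). The core subunits NDUFS1, NDUFS3, NDUFS7, NDUFS8, NDUFV1 and NDUFV2, which belong to the arm that takes electrons from NADH to ubiquinone, had log2 fold changes between -0.06 and 0.03. NDUFA4, grouped here by its symbol although its protein is known to associate with complex IV, was at 0.05.

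NDUFA13, an accessory subunit also known as GRIM-19, had the largest positive value of the nuclear genes with both guides, 0.50 (SE 0.24, unadjusted p = 0.0586, edgeR adjusted p = 0.998). Its levels were 2.47, 3.24 and 3.12 CPM without targeting, 4.53 and 5.32 with guide 1, and 4.39 and 2.64 with guide 2. Guide 1 lay above the controls and guide 2 straddled them. These values rest on 28 to 57 counts, and 41.3% of the 50-base words of its transcript occur in another annotated gene. Over the left-out libraries the value ranged from 0.294 without guide 2 replicate 1 to 0.659 without guide 2 replicate 2, and it was 0.39 without non-targeting replicate 1. With guide 1 alone the log2 fold change was 0.74 (unadjusted p = 0.0189, edgeR adjusted p = 0.877).

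NDUFA11, a membrane-arm accessory subunit, was at 22.2, 28.5 and 31.2 CPM without targeting, 36 and 34 with guide 1, and 27.3 and 26.9 with guide 2. Both guide 1 libraries lay above every other library, but its log2 fold change of 0.36 with guide 1 did not pass (unadjusted p = 0.0365, edgeR adjusted p = 0.877), nor did the difference of -0.37 between guide 2 and guide 1. NDUFA1, needed for complex I assembly, was at 117, 125 and 121 CPM without targeting and between 127 and 140 with a guide. Its groups did not overlap, at a log2 fold change of 0.15 (SE 0.09). Of their 50-base words, 63.9% for NDUFA11 and 40.7% for NDUFA1 occur in another annotated gene. NDUFC2 and NDUFA9 were counted at only 42 to 55 and 70 to 83 reads a library, and both share sequence with other annotated genes.

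Complex II has only 4 subunits. SDHA, the flavoprotein, was at 0.07 (SE 0.11) on the log2 scale, SDHB, the iron-sulfur subunit, at 0.09 (SE 0.10) and SDHC, a membrane anchor, at -0.01 (SE 0.11). SDHB lay at 80.6, 93.0 and 92.0 CPM without targeting and between 93.7 and 94.8 with a guide, so the groups did not overlap, yet they differed by less than the spread of the controls. SDHD, the other membrane anchor, had the lowest value of all subunit genes, -0.62 (SE 0.28, unadjusted p = 0.0458, edgeR adjusted p = 0.998). SDHD was at 28.7, 11.3 and 10.9 CPM without targeting, 8.86 and 11.8 in the guide 1 libraries and 10.8 and 13.1 in the guide 2 libraries. The first of these values, from non-targeting replicate 1, was 2.58 times the mean of the other 6, which overlapped, and without it the log2 fold change was 0.01. Of the 50-base words of SDHD, 27.7% occur in other annotated genes, pseudogenes among them.

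The 7 tested nuclear genes of complex III spanned -0.02 to 0.09. UQCRB, a small subunit near the ubiquinone site, took the most reads, at 281, 243 and 259 CPM without targeting, 245 and 250 with guide 1, and 263 and 283 with guide 2 (log2 fold change -0.01, SE 0.09). The 2 smallest p-values belonged to UQCR10 at 0.09 (unadjusted p = 0.497) and UQCRQ at 0.06 (unadjusted p = 0.644), both small subunits. UQCRFS1, the Rieske iron-sulfur protein, was at 112, 138 and 136 CPM in the controls and between 128 and 131 with a guide. All of these ranges overlapped.

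Complex IV showed the same narrow range, from -0.05 (COX8A) to 0.06 (COX6A1). COX7C, a small structural subunit, took the most reads of the complex, 651, 720 and 747 CPM without targeting and 715 to 738 with a guide (log2 fold change 0.05, SE 0.09). COX8A, also small, was at 60.2 and 57.6 CPM with guide 1 and at 51.8 and 36.8 with guide 2, with controls at 45.3, 56.4 and 57.0. The difference of guide 2 from guide 1, -0.41 (SE 0.17, unadjusted p = 0.0328), had an edgeR adjusted p of 0.983. Both guide 2 values lay below both guide 1 values, and the lowest was that of guide 2 replicate 2. Without that library the difference was -0.182, and without guide 2 replicate 1 it was -0.672.

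In the ATP synthase, ATP5A1 and ATP5B, the alpha and beta subunits, were at 0.00 (SE 0.09) and 0.01 (SE 0.09). ATP5A1 lay at 788, 886 and 863 CPM without targeting and 815 to 862 with a guide. ATP5G1, ATP5G2 and ATP5G3, which encode the same mature c subunit of the rotor ring, were at 0.08 (SE 0.13), 0.02 (SE 0.11) and -0.03 (SE 0.09). ATP5L, a membrane-part subunit, was at -0.07. ATP5J2 was at 41.8 and 36.4 CPM with guide 1 against 32.9 and 27.0 with guide 2, and that difference of -0.38 did not pass (unadjusted p = 0.0332, edgeR adjusted p = 0.983).

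ATP5D, the delta subunit of the central stalk, was called in no comparison of the full fit but in several with other libraries or settings. It lay at 100, 179 and 145 CPM without targeting (141 ± 39.4, SD, n = 3), at 96.6 and 102 with guide 1 and at 125 and 128 with guide 2, from 981 to 1985 counts a library. The controls spanned the guide libraries, with replicate 1 among the guide 1 values and replicates 2 and 3 above all 4 guide libraries. Its log2 fold change was -0.33 with both guides (SE 0.15, edgeR adjusted p = 0.998), -0.51 with guide 1 (adjusted p = 0.877) and -0.16 with guide 2 (adjusted p = 0.999).

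Without non-targeting replicate 1, edgeR called ATP5D lower with both guides (-0.53, SE 0.07, adjusted p = 2.45e-05), with guide 1 (-0.70, adjusted p = 2.31e-06) and with guide 2 (-0.35, adjusted p = 0.0332). That setting also called 53 genes with both guides, 59 with guide 1 and 128 with guide 2, against 2, 3 and 1 in the full fit. Without non-targeting replicate 2, by contrast, the value was -0.12 with both guides (adjusted p = 0.842) and 0.05 with guide 2. With the GC content adjustment, ATP5D was called with guide 1 (-0.56, adjusted p = 0.0194) but not with both guides (-0.33, adjusted p = 0.189). With that adjustment and without non-targeting replicate 1, a setting added after the data were seen, it was called with both guides (-0.43, adjusted p = 0.000457) and higher in guide 2 than in guide 1 (0.45, adjusted p = 0.00345). ATP5D has the highest transcript GC content of the tested subunit genes, 68.7%. COX6B1 (-0.29, adjusted p = 0.0438) and NDUFA3 (-0.37, adjusted p = 0.0488) were the other subunit genes called in any setting, both with guide 2 without non-targeting replicate 1. With the GC content adjustment and without that library, no subunit gene was called with guide 2, ATP5D included.

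**Figure D4:**
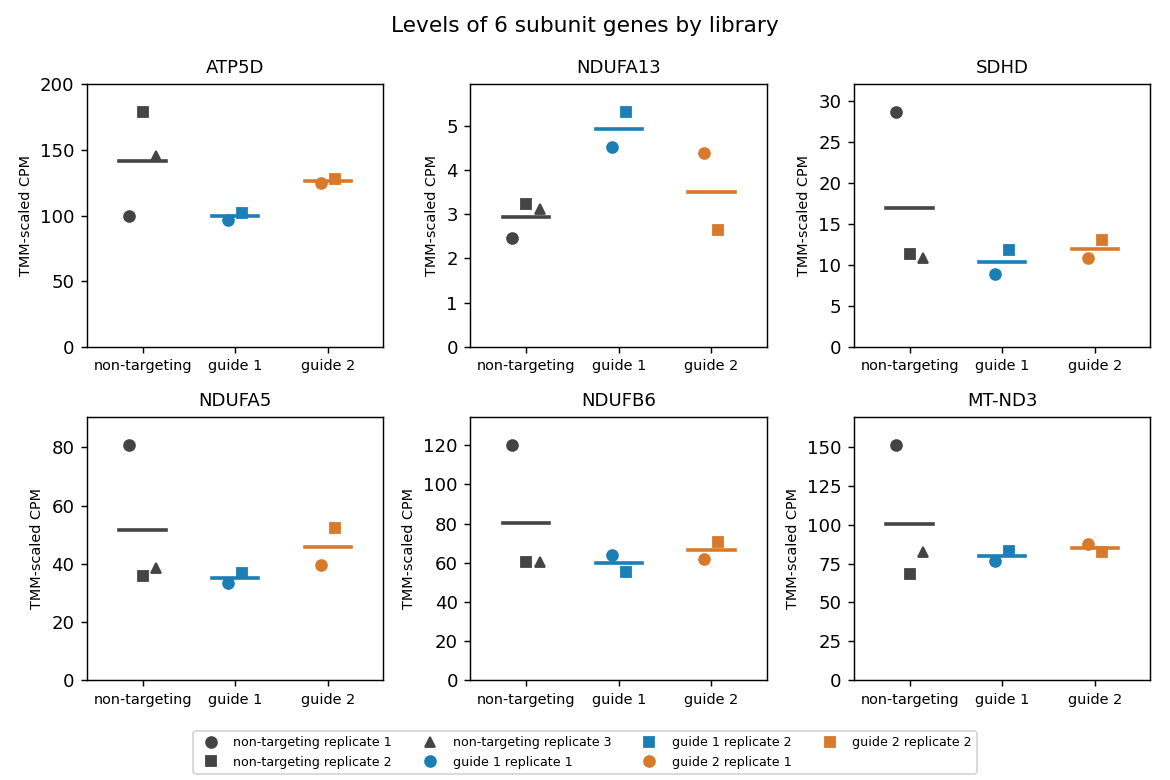
TMM-scaled CPM of ATP5D, NDUFA13, SDHD, NDUFA5, NDUFB6 and MT-ND3 in each library, by group; points are libraries, with marker shape for the replicate number, and lines are group means. For SDHD, NDUFA5, NDUFB6 and MT-ND3 a single library, non-targeting replicate 1, lies above the rest, whereas for ATP5D it lies below the other 2 controls.

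The way non-targeting replicate 1 differed was shared by many subunits. Of the 71 nuclear genes, 11 were higher in it than in every other library and 37 lower, with 29.7 and 26.9% of all tested genes as the background. Of the 13 mitochondrially encoded genes, 7 were higher and 1, MT-CYB, was lower. Beside SDHD, the clearest were NDUFA5 at 2.05 times, NDUFB6 at 1.93 times and MT-ND3 at 1.88 times the mean of the other 6. NDUFA5 and NDUFB6 are accessory subunits of the peripheral and the membrane arm of complex I. NDUFA5 was at 80.7, 35.8 and 38.4 CPM without targeting, 33.3 and 37.0 with guide 1, and 39.5 and 52.2 with guide 2. NDUFB6 was at 120, 60.3 and 60.5 CPM, then 64.0 and 55.3, then 62.1 and 70.8. Both had negative fold changes against the full control group (-0.37 and -0.35), neither passed the threshold, and without non-targeting replicate 1 they were 0.12 and 0.06.

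Levels of the nuclear subunits moved with transcript GC content in opposite ways in different libraries. Over the 71 genes, Spearman's rho between GC content and a gene's log2 deviation from the other 6 libraries was -0.73 in non-targeting replicate 1 and -0.69 in guide 2 replicate 2. It was 0.64 and 0.49 in non-targeting replicates 2 and 3, 0.68 and 0.55 in guide 1 replicates 1 and 2, and 0.13 in guide 2 replicate 1. These are descriptions across genes that share a library and its depth, and genes are not replicates. Over 9801 tested genes with a known GC content the values had the same signs, from -0.69 in non-targeting replicate 1 to 0.42 in non-targeting replicate 2. When the nuclear genes were divided into 3 classes of GC content, the median deviation in non-targeting replicate 1 was 0.08 in the lowest class (34.4 to 45.9% GC), -0.17 in the middle and -0.31 in the highest (52.8 to 68.7%). In guide 2 replicate 2 the corresponding medians were 0.07, -0.07 and -0.21. With the adjustment for GC content, ATP5D was the only subunit gene called. The part of library preparation in these values was not tested.

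**Figure D5:**
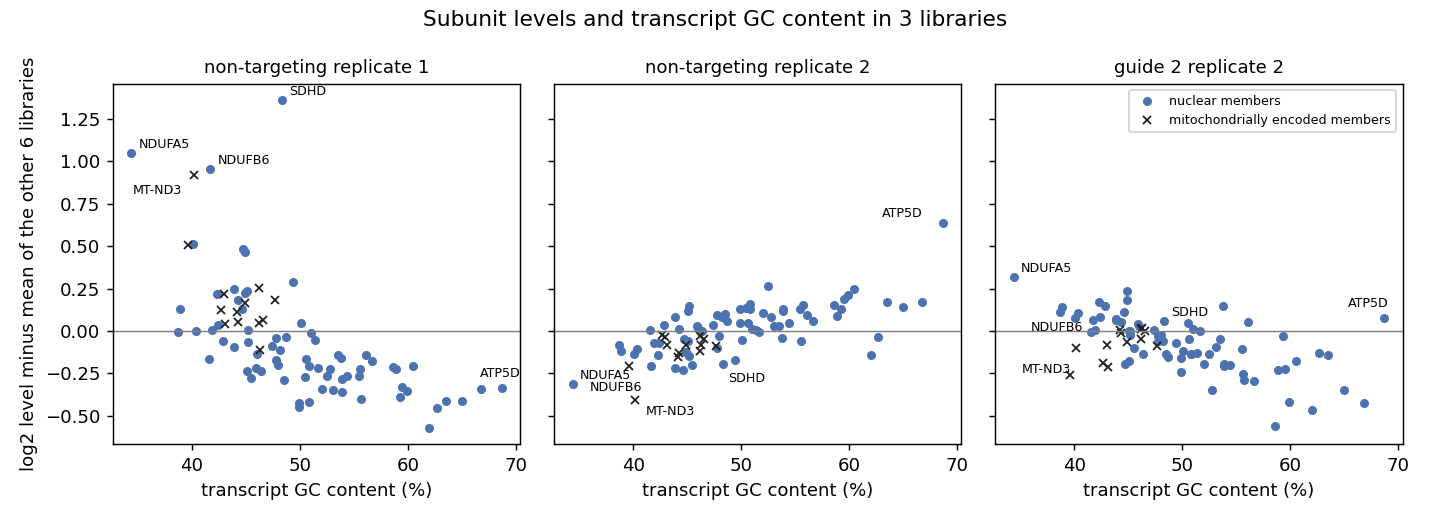
Log2 level of each tested subunit gene minus its mean in the other 6 libraries, against transcript GC content in percent, in non-targeting replicates 1 and 2 and guide 2 replicate 2; dots are nuclear and crosses mitochondrially encoded genes. Points fall with GC content in the first and last panel (rho -0.73 and -0.69 over 71 nuclear genes) and rise in the middle one (0.64).

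The controls were closer to each other without that library. The median coefficient of variation of the nuclear genes was 11.6% over the 3 non-targeting libraries, with SDHD widest at 60.1%, and 3.6% over replicates 2 and 3 alone. For the mitochondrially encoded genes it was 8.09 and 4.5%. Within guide 1 it was 3.75% for the nuclear genes and 2.26% for the mitochondrial genes, and within guide 2 it was 5.79 and 5.82%.

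Genes that serve the chain without being counted among its subunits were described from 6 lists, and edgeR called 0 of their genes in any comparison of the full fit. With both guides, 1 of them, MRPL41, had an unadjusted p under 0.05. That was 1.39% of the 72 tested mitochondrial ribosomal protein genes, against 4.19% of all tested genes. Of 17 tested genes for mitochondrial biogenesis and transcription, 5 were above and 12 below 0 with both guides (median -0.05). YY1 and GABPA, 2 of the factors whose words were searched in the promoters, were at -0.25 (SE 0.14) and -0.30 (SE 0.19). GABPA was at 18.5, 10.7 and 11.6 CPM without targeting and between 10 and 12.1 with a guide, with non-targeting replicate 1 high. Without that library the value of GABPA was -0.004 and that of YY1 -0.13. PPARGC1A, a coactivator of biogenesis, had 0 counts in every library. ATP5J lies beside GABPA and shares 12.6% of its 50-base words with it, so reads of the pair were not cleanly separable without strand. Of 19 genes for mitochondrial RNA processing, the smallest p-values were those of FASTK at 0.22 and LRPPRC, which stabilises mitochondrial messages, at -0.14. Without non-targeting replicate 1 these were 0.14 and -0.003.

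Among 42 tested assembly factors (median -0.04), UQCC1 and LYRM7, both acting in complex III assembly, were at -0.30 (SE 0.15) and -0.33 (SE 0.22), and without non-targeting replicate 1 at -0.30 and 0.12. CYCS, the electron carrier cytochrome c, was at 75.5, 38.1 and 43.4 CPM without targeting and between 40.5 and 49.7 with a guide, with non-targeting replicate 1 again high. Its log2 fold change was -0.27, and 0.10 without that library. C14orf2, a small protein of the ATP synthase outside the symbol rule, was at -0.09. Of 72 tested mitochondrial ribosomal protein genes, 33 were above and 39 below 0 (median -0.02), and MRPL41 at -0.37 (unadjusted p = 0.0241, edgeR adjusted p = 0.998) and MRPL35 at -0.18 had the smallest p-values. Without non-targeting replicate 1, edgeR called MRPL41 with both guides (-0.51, adjusted p = 0.0173) and with guide 1. It was the only gene of the 6 lists called in that setting, 0.581% of 172. Of all genes, 0.524% were called with both guides and 0.584% with guide 1. In the tricarboxylic acid cycle, SUCLG1 and SUCLG2, subunits of succinyl-CoA synthetase, were at -0.17 and -0.15, and the median of 13 genes was 0.00.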

How the data were processed

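For 7 libraries, the authors deposited unscaled read counts by gene symbol, in whole numbers, per the file headers; Smart-seq2 and Nextera indexing are named in the labels' protocols, and STAR and GRCh37 (hg19) per the submitters' processing notes. The sources used here do not give the counting program, its annotation and strand setting, or the treatment of multiply aligned reads. Reads carry no molecular identifiers, so PCR copies count as reads, and strand is not marked. Library totals ran from 9780800 to 11350113 counts.

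The subunit genes were taken by full match of the symbol, and the members and lists were chosen with earlier results of these data known. Genes named singly were all mitochondrially encoded ones; per complex, the nuclear gene with the most reads and the 2 of smallest p; per other comparison, the 3 of smallest p and any called; the 3 subunit c genes; and per list the 2 of smallest p at a mean of at least 5 CPM. ATP5D, NDUFA5 and others named for non-targeting replicate 1, for GC content or for their role were chosen after their values were seen. Some genes are not reported here by name.

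edgeR 4.0.16 in R 4.3.3 (limma 3.58.1) fitted all 7 libraries with group as the only term, after filterByExpr (minimum count 10) and TMM scaling, with 4 residual degrees of freedom and a biological coefficient of variation of 12.5%. The quasi-likelihood F-test was two-sided, with Benjamini-Hochberg adjustment over 10212 genes. Standard errors and 95% intervals came from the same fit. Levels are CPM of the scaled library size as mean ± SD. Transcript lengths, GC content and shared 50-base words came from GENCODE v29 transcripts, matched by symbol or RefSeq synonym, and GC content was known for 96% of tested genes. Promoters came from RefSeq, 50 by the same symbol and 11 by a newer one.

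Alternatives were total counts, RLE factors, scaling without mitochondrially encoded genes, no filter on low counts, a replicate block, a lowess adjustment for GC content (span 0.4), DESeq2 1.42.0, other denominators for shares, and leaving out each library. On simulated counts for both guides (10061 genes), 80.6% of genes changed by 1 log2 unit and 27.3% of those changed by 0.5 were recovered, and 4 of 110 calls were unchanged genes.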

Additional observations from a re-analysis of the deposited data

How the results depend on the processing

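The numbers of genes called over the whole table moved by over 1.5 times. With both guides, 2 genes were called, against 4 with DESeq2, 10 with the GC content correction, 8 without the low-count filter and 1 with the replicate block. With guide 1, 3 were called, against 6, 27 and 19 under the first 3 of these. With guide 2, 1 was called, against 3, 4 and 4, and between the guides 0, against 2, 2 and 2 and, with the replicate block, 1. Leaving out each library in turn gave 1 to 53 calls with both guides, 1 to 59 with guide 1, 1 to 128 with guide 2 and 0 to 32 between the guides, the upper values without non-targeting replicate 1. With the GC content correction and without that library, a setting chosen after seeing the data, 49, 77, 38 and 38 genes were called.

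Calls of nuclear subunit genes ranged over the left-out libraries from 0 to 1 with both guides, 0 to 1 with guide 1 and 0 to 3 with guide 2. They numbered 1 with guide 1 under the GC content correction, and 1 with both guides, 1 with guide 1 and 1 between the guides under that correction without non-targeting replicate 1; the gene was ATP5D each time. The mitochondrially encoded genes had 0 calls under each alternative run. Their median with guide 1, -0.06, ranged from -0.107 to 0.033 over the left-out libraries. Without globin counts in the denominator, shares rose to between 1.18 and 1.41% for the mitochondrial genes and 1.24 and 1.33% for the nuclear genes. Under the other denominators, the non-targeting and guide libraries still overlapped.

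Correlations of same-numbered libraries' deviations ran from -0.187 to 0.028. The 2 libraries of a guide group mirror each other in these deviations, so the values cannot show whether replicate numbers pair the libraries. With the replicate block, 0 subunit genes were called, and ATP5A1 (0.012), MT-ATP6 (0.018), MT-ATP8 (-0.105) and MT-ND6 (-0.04) changed sign with both guides. The following uncalled values also changed sign, and the cause was not tested. Without the low-count filter ATP5A1 was at 0.001 and MT-ATP6 at 0.004, and with total counts they were at 0.005 and 0.002. With the GC content correction ATP5G2 was at -0.016, MT-ATP6 at 0.037, MT-ND5 at 0.021 and UQCRB at 0.084.

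Over the left-out libraries, values with both guides ranged from -0.051 to 0.031 for ATP5A1, -0.046 to 0.157 for ATP5G1, -0.072 to 0.099 for ATP5G2, -0.119 to 0.012 for ATP5L, -0.008 to 0.089 for COX7C and -0.01 to 0.164 for NDUFA10. They ranged from -0.526 to 0.059 for NDUFB6, -0.014 to 0.136 for SDHA, -0.846 to 0.007 for SDHD, -0.062 to 0.167 for UQCR10, -0.055 to 0.052 for UQCRB and -0.061 to 0.157 for UQCRQ. Among the mitochondrial genes the ranges were -0.065 to 0.049 for MT-ATP6, -0.125 to 0.302 for MT-ATP8, -0.507 to 0.128 for MT-ND3, -0.074 to 0.1 for MT-ND4L, -0.052 to 0.059 for MT-ND5 and -0.062 to 0.059 for MT-ND6. CYCS ranged from -0.453 to 0.1 and LYRM7 from -0.538 to 0.115. With guide 2, ATP5D ranged from -0.351 to 0.053 and SDHD from -0.739 to 0.114.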
